A study of Homo sapiens with 21 samples.

Results

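CHCHD2 encodes a small protein of the mitochondrial intermembrane space, and it is described here together with 6 genes that work with it. The 7 genes are CHCHD2, its paralog CHCHD10, the complex IV subunits COX4I1 and COX4I2, and CHCHD3, CHCHD6 and IMMT of the MICOS complex, out of 62699 genes in the count table. CHCHD2 was picked because it was expressed in the ISL1-/- libraries and in no other genotype, so its levels across genotypes are a description and were not tested. The other 6 genes were picked by function: the paralog, the promoter target COX4I2 with its alternative subunit COX4I1, and the MICOS partners. The libraries came from islets differentiated from H1, an established human embryonic stem cell line. The genotypes were WT, ISL1-/-, PAX6-/- and PDX1-/-, and ISL1, PAX6 and PDX1 encode transcription factors of the pancreatic endocrine lineage. Cells of every group were transduced on day 11 with lentivirus for ISL1-BFP or for BFP alone, and BFP+ cells were sorted and harvested on day 18. Crossing genotype and vector gave 8 groups and 21 libraries: 2 libraries in each WT group and in PDX1-/- with ISL1, and 3 in every other group. All groups thus share the H1 background, the differentiation and a transduction, and there was no untransduced group. Whether a genotype stands for 1 clone or several is not given in the sources used here. Nothing in the labels says that replicates came from separate differentiations, so p-values measure only the spread between these libraries.

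CHCHD2 and CHCHD10 are twin CX9C proteins: paired cysteine motifs let the CHCHD4 relay fold and trap them in the intermembrane space, where they form a complex with each other. CHCHD2 binds complex IV (cytochrome c oxidase), and a nuclear pool acts with RBPJ at the promoter of COX4I2, the low-oxygen form of complex IV subunit 4, while COX4I1 is the common form. MICOS holds the cristae junctions of the inner membrane, with IMMT (mitofilin) as its core scaffold and CHCHD3 and CHCHD6 as CX9C subunits bound to it.

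The libraries held from 36.8 to 60.2 M counts (median 50.4 M, where M is 1e6). ISL1 itself was lower in the ISL1-/- libraries, at 71.6 to 96.8 CPM (counts per M counts), than in WT, at 306 to 519 CPM, with PAX6-/- at 126 to 356 and PDX1-/- at 132 to 313. ISL1 counts did not separate the ISL1-vector from the BFP-vector libraries. PAX6 and PDX1 counts did not separate the PAX6-/- and PDX1-/- libraries, so the counts of these genes did not check those labels. GCG, the glucagon gene, did separate the vectors within ISL1-/-, at 2197 to 5362 CPM with ISL1 and 74.2 to 90.9 with BFP. In PAX6-/- its vector ranges overlapped, at 28.1 to 339 and 15.7 to 77.9 CPM. INS, the insulin gene, was at 5651 to 8382 CPM in WT and 636 to 2787 in PAX6-/-. It was at 87.5 to 186 in PDX1-/-, except in replicate 4 with ISL1. The endocrine markers were present, with CHGA at 10301 CPM or more in every library. Replicate 3 of PAX6-/- with ISL1 and replicate 4 of PDX1-/- with ISL1 stood apart: 3.16% and 3.84% of their counts were mitochondrially encoded, against 1.28 to 1.93% in the other 19 libraries. Of the 25884 genes tested, 26.6% in the PAX6-/- library and 27.8% in the PDX1-/- library lay above all of the other 19 libraries, and 22.9% and 26.3% lay below them all. In the PDX1-/- library INS was at 25612 CPM and GCG at 106084, against 87.5 to 186 and 11659 to 19603 in the other PDX1-/- libraries. In the PAX6-/- library INS was at 2787 CPM and GCG at 339, against 636 to 970 and 15.7 to 77.9 in the other PAX6-/- libraries. Results that rest on these 2 libraries are given with and without them.

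CHCHD2 was on in all 6 ISL1-/- libraries and at or near 0 in the other 15. The gene (ENSG00000106153.13) lies at chr7:56101573-56106476 on the minus strand of GRCh38, with 1028 bases of exon in the count table. The ISL1-/- libraries with BFP held 8323, 7608 and 9155 CHCHD2 counts, which is 147, 132 and 142 CPM. Those with the ISL1 vector held 7089, 8258 and 7141 counts, or 131, 137 and 129 CPM. The 6 libraries were close to each other, with a mean of 136 CPM and a coefficient of variation of 5.41%.

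Outside ISL1-/-, 4 libraries had 0 CHCHD2 counts and 5 had 1. WT with BFP held 7 and 7 counts and WT with ISL1 held 8 and 5, so each of the 4 WT libraries had a few counts (0.104 to 0.212 CPM). PAX6-/- with BFP held 0, 1 and 0 counts and PAX6-/- with ISL1 held 4, 1 and 1. PDX1-/- with BFP held 0, 0 and 1. In PDX1-/- with ISL1, replicate 2 held 1 count and replicate 4 held 31, which is 0.919 CPM or 0.674% of the ISL1-/- mean. Replicate 4 is the PDX1-/- library with 3.84% mitochondrial counts. The next highest library outside ISL1-/- was at 0.212 CPM, or 0.155% of that mean.

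As folds, the ISL1-/- mean was 746 times the mean of WT with BFP and 1002 times that of WT with ISL1. Against PAX6-/- with BFP it was at least 2371-fold higher and against PDX1-/- with BFP at least 2254-fold higher, both computed against a floor of 3 counts per library. The lowest ISL1-/- library was 140 times the highest of the other 15. In bulk RNA, fewer cells that express a gene and less RNA per cell cannot be told apart, so a few counts in WT can be many cells with a trace or few cells with more.

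**Figure D1:**
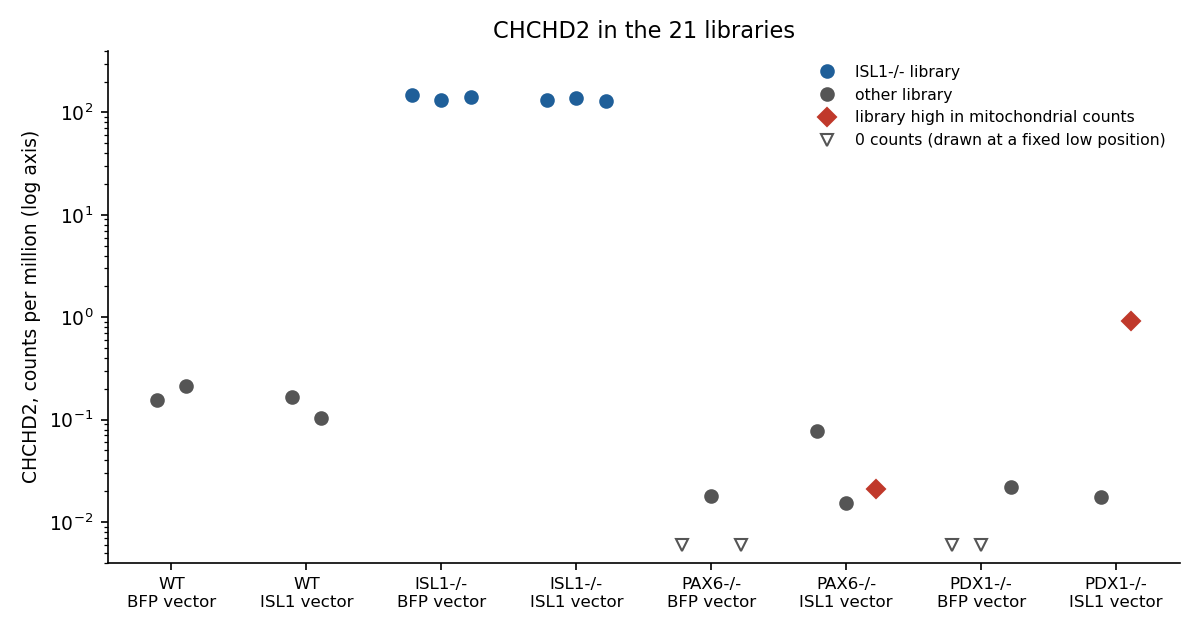
CHCHD2 in CPM on a log axis for each of the 21 libraries, by group; open triangles mark libraries with 0 counts at a fixed low position, and red diamonds mark the libraries with 3.16% and 3.84% mitochondrial counts. The 6 ISL1-/- libraries sit between 129 and 147 CPM, and the highest other library is at 0.919 CPM.

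With cutoffs set after the values of CHCHD2 were seen, which therefore support nothing, CHCHD2 was the only gene at 10 CPM or more in all 6 ISL1-/- libraries and at 1 CPM or less in all 15 others. No gene met the reverse, but TSPYL5 came close, at no more than 0.737 CPM in ISL1-/- and 9.9 to 103 elsewhere, and the noncoding LINC02899 was at 0 in ISL1-/- and 2.21 to 6.82 CPM elsewhere. Where CHCHD2 was on, it ranked 1491 by mean CPM over the ISL1-/- libraries among all 62699 genes of the count table.

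The ISL1 vector made no detectable difference to CHCHD2 within ISL1-/-, the only comparison of this gene that was tested. The ISL1 vector gave a log2 difference from BFP of -0.09 (SE 0.49, 95% interval -1.11 to 0.94, adjusted p = 1 by edgeR's quasi-likelihood F test, n = 3 and 3). Without the 2 libraries high in mitochondrial counts the interval narrowed to -0.41 to 0.17 around -0.12. In this comparison 0.382% of all genes tested passed the adjusted threshold of 0.05.

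The stretch just upstream of CHCHD2 is shown because it is the start region of the gene that differed. It is RefSeq sequence of GRCh38.p14, chr7:56106577-56106726 on the minus strand. The stretch ends before the RefSeq start and before that of the GENCODE release 29 transcript used below for the coding sequence. Other annotated starts were not compared. CpG dinucleotides are in capitals, and the 150 bases hold 13 of them.
CHCHD2 upstream: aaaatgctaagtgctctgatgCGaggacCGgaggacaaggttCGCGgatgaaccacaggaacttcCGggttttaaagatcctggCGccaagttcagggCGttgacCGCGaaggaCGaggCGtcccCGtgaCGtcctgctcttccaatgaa

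In the window from 250 bases before to 50 after the RefSeq start, CHCHD2 had 26 CpGs, more than 69.9% of 35116 promoters (median 14). Of the other members with a promoter in the table, CHCHD10 had 23, CHCHD6 26, CHCHD3 29, IMMT 41 and COX4I1 42, so CHCHD2 lay within the range of its partners. COX4I2 has no entry. Of the letters searched on both strands, TGGGAA, the core that RBPJ binds (TTCCCA on the other strand), was in the windows of COX4I1 and CHCHD3 but not of CHCHD2, and in 24% of all promoters. TCCCACG, the end of the oxygen-responsive element described at COX4I2, was in the window of CHCHD2, in none of the other 5, and in 3.45% of all promoters. TGACG, part of the cyclic AMP response element, was in CHCHD2's window alone among the 6 and in 24.6% of all, CCAAT in those of CHCHD2, CHCHD3, CHCHD6 and IMMT and in 34.6% of all, and TAAT, the homeodomain core, in none of the 6 and in 50.2% of all. A match of letters is a description of the sequence and not a binding site.

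Counts also appeared on copies of CHCHD2 elsewhere in the genome. The table has 10 processed pseudogenes named CHCHD2P, and together they held 57 to 85 counts in the ISL1-/- libraries and 4 to 27 in the others. This was 0.739 to 1.12% of the CHCHD2 counts of the same ISL1-/- libraries. CHCHD2P9 (chromosome 9) had 10 to 16 counts in each ISL1-/- library and 0 in all 15 others. CHCHD2P2 (chromosome 5) had 10 to 17 against 0 to 3, and CHCHD2P6 (chromosome 1) had 29 to 57 against 2 to 26. The other 7 copies had at most 5 counts in any library.

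The 3 copies with 10 or more counts in every ISL1-/- library were those most like CHCHD2 in sequence. Over the part that aligned to the coding sequence of 456 bases (GENCODE release 29), CHCHD2P6 was 97.8% identical, CHCHD2P9 96.5% and CHCHD2P2 93.4%, and the other 7 copies were 77.3 to 91.6% identical. The longest stretch without a difference was 132 bases in CHCHD2P9, 99 in CHCHD2P6 and 89 in CHCHD2P2. The stretch of 60 coding bases in which these 3 differ most from CHCHD2 is printed to show how few letters separate their reads. It runs from base 291 to base 350 of the coding sequence, and bases that differ from CHCHD2 are in capitals.
CHCHD2: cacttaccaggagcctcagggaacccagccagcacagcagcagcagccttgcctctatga
CHCHD2P6: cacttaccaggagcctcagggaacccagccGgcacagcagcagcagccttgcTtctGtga
CHCHD2P2: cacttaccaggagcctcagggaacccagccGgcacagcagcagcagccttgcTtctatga
CHCHD2P9: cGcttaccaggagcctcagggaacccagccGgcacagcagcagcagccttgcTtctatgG
The copies differ from CHCHD2 here at 3, 2 and 4 bases. In GRCh38 the stretches are chr1:15604878-15604937, chr5:69334186-69334245 and chr9:79391594-79391653, all on the plus strand, and the CHCHD2 stretch crosses an exon junction. How reads that fit several places were counted is not given in the sources used here, so counts on the copies and on CHCHD2 cannot be separated with certainty; the copies are at most 1.12% of CHCHD2 where it was on.

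**Figure D2:**
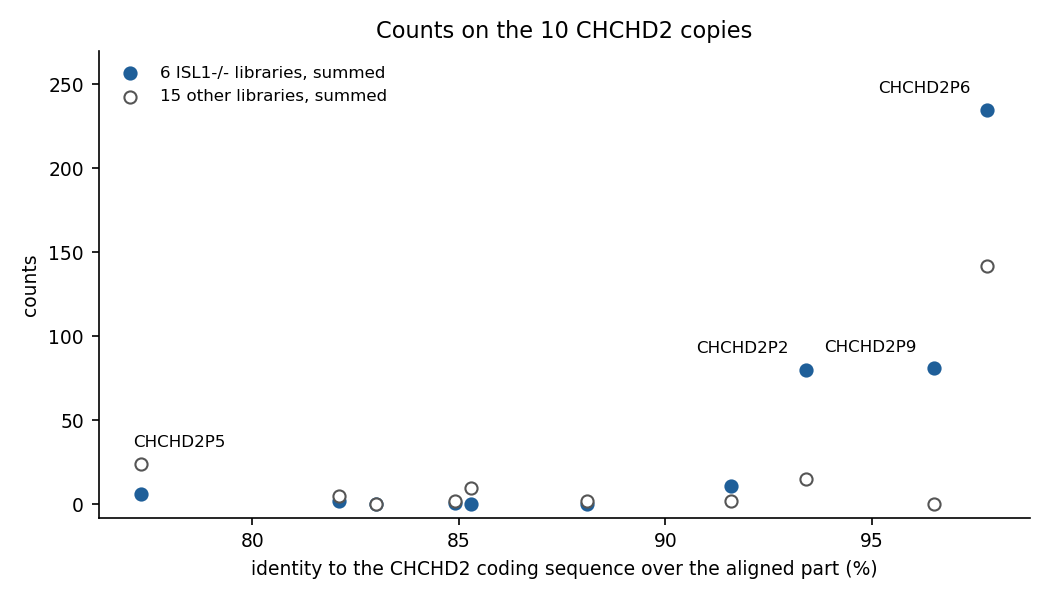
Summed counts (vertical axis) on each of the 10 CHCHD2 copies against the identity of the copy to the CHCHD2 coding sequence in percent (horizontal axis); filled points are the 6 ISL1-/- libraries and open points the 15 others. CHCHD2P6, CHCHD2P9 and CHCHD2P2, at 97.8, 96.5 and 93.4% identity, carry 235, 81 and 80 counts in ISL1-/-.

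The genes around CHCHD2 had no change of its size. There are 9 other protein-coding genes that start within 500 kb, and 7 had enough counts to be tested in ISL1-/- against the other 3 genotypes. In this comparison 11.9% of all genes tested passed. PHKG1, a catalytic subunit of phosphorylase kinase that starts 13.5 kb away, was the 1 that rose. It was at 0.109 to 0.594 CPM in ISL1-/- and 0.0302 to 0.34 elsewhere, with at most 33 counts in a library. Its log2 fold change was 1.47 (SE 0.37, adjusted p = 0.0143, edgeR), and the call was lost without replicate 1 of ISL1-/- with BFP (adjusted p = 0.0592). SUMF2, a formylglycine-generating enzyme homolog of the endoplasmic reticulum, was at 82 to 96.2 CPM in ISL1-/- and 74.3 to 171 elsewhere, so the ranges overlapped. By edgeR it fell by 0.53 in log2 (SE 0.14, adjusted p = 0.0151). PHKG1 and SUMF2 overlap at their ends on opposite strands, and the strand setting of the counting is not given in the sources used here.

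The remaining 5 tested neighbours did not pass with all 21 libraries. CCT6A, a chaperonin subunit, was at 282 to 338 CPM in ISL1-/- and 279 to 408 elsewhere (log2 fold change -0.09, SE 0.10). PSPH, the last enzyme of serine synthesis, had -0.43 (SE 0.17, adjusted p = 0.106, edgeR). PSPH passed without the 2 libraries high in mitochondrial counts, at -0.23 (SE 0.07, adjusted p = 0.0226, edgeR), and in 1 of 21 fits that left out 1 library. The others had small values: NIPSNAP2 -0.12 (SE 0.11), MRPS17 -0.05 (SE 0.13) and ZNF713 0.05 (SE 0.14). SEPTIN14 and NUPR2, the nearest gene on the other side at 9.9 kb, had at most 2 counts in any library.

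**Figure D3:**
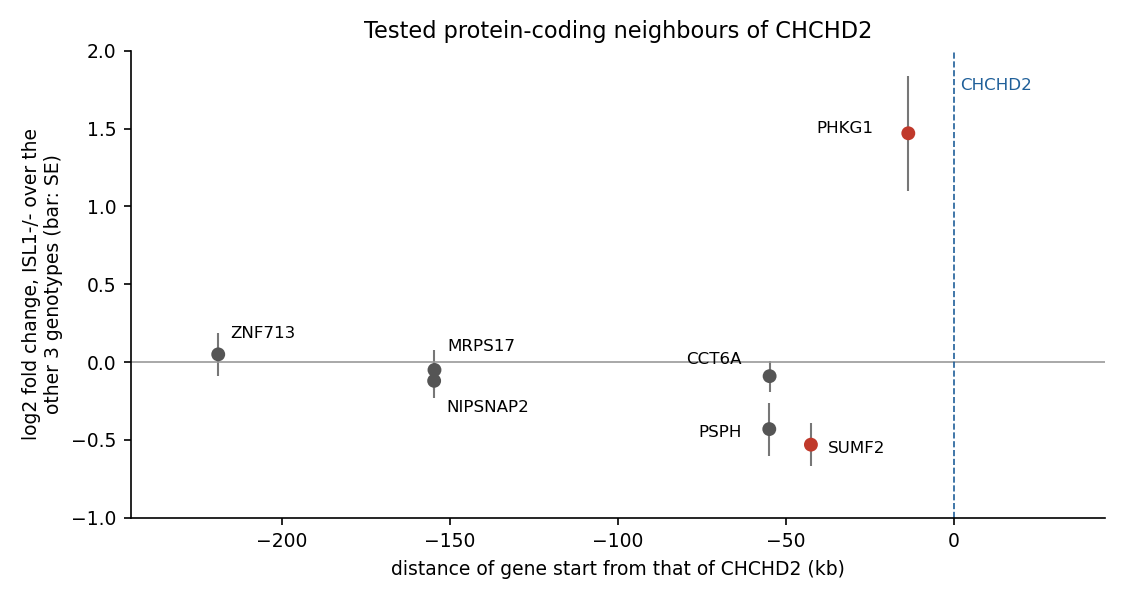
Log2 fold change of ISL1-/- over the other 3 genotypes (bars are SE) for the 7 tested protein-coding neighbours against the distance of their start from that of CHCHD2 in kb; red points passed the adjusted threshold. PHKG1 lies at 1.47 and SUMF2 at -0.53, and the other 5 lie between -0.43 and 0.05.

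By the rule of the highest correlation of log2 CPM with CHCHD2 over the 21 libraries, a description since 2 levels of CHCHD2 fix the pattern, the most alike gene was CHCHD2P9 (Pearson r = 0.97), its copy. Next was the noncoding ENSG00000286456 (r = 0.97), also on chromosome 7, at 2.92 to 5.64 CPM in ISL1-/- and at most 0.0353 elsewhere. IRX3, a homeobox transcription factor, followed at 70.6 to 95.2 CPM in ISL1-/- against 13.5 to 31.9 (r = 0.95). SOX18, a transcription factor of vascular development, was at 7.06 to 8.11 against 0.492 to 3.85 CPM (r = 0.95). The others were ENSG00000290510 (r = 0.94), ZNF585B, ENSG00000228999 and RNU6-1 (r = 0.91 each).

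The 4 genes most opposite to CHCHD2 were ENSG00000285756, LINC02899 and ZNF585A (r = -0.98 each) and TSPYL5 (r = -0.97). ZNF585A and ZNF585B are neighbouring zinc finger genes on chromosome 19 and went opposite ways: ZNF585B was at 5.49 to 6.62 CPM in ISL1-/- and 0.464 to 2.33 elsewhere, and ZNF585A at 0.0499 to 0.36 against 4.5 to 15 CPM. TSPYL5 belongs to a nucleosome assembly protein family. Genes whose 6 ISL1-/- libraries all lay above the other 15 were 0.514% of the genes tested, and those all below were 0.572%.

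The partner genes did not share the pattern. Their correlations with CHCHD2 over the 21 libraries were 0.28 for CHCHD10, 0.01 for COX4I1, -0.09 for CHCHD3, -0.16 for CHCHD6 and -0.09 for IMMT. In ISL1-/- against the other 3 genotypes, where 11.9% of all genes passed, none of the 5 partners that had enough counts passed by edgeR, and none had an unadjusted p under 0.05 or passed by DESeq2. Over all 9 comparisons, which share libraries with each other, none of their 45 tests passed by edgeR; 1 had an unadjusted p under 0.05, and the same number passed by DESeq2.

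CHCHD10, the paralog and complex partner, had much the same level whether CHCHD2 was on or off. The gene (chr22:23765834-23767972) was at 19.9, 17.5 and 20.7 CPM in ISL1-/- with BFP and at 14.8, 16.3 and 17.2 with ISL1. WT was at 18.9 and 19.0 with BFP and at 16.5 and 16.2 with ISL1. PAX6-/- had 13.4, 13.9 and 17.2 with BFP and 10.6, 11.1 and 17.6 with ISL1. PDX1-/- had 18.1, 15.0 and 17.3 with BFP and 12.9 and 39.7 with ISL1. The ISL1-/- libraries overlapped those of WT, PAX6-/- held the lowest values, and 1 PDX1-/- library stood far above the rest. ISL1-/- against the other 3 genotypes gave a log2 fold change of 0.03 (SE 0.17, 95% interval -0.33 to 0.40, adjusted p = 0.927, edgeR).

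CHCHD10 passed once the 2 libraries high in mitochondrial counts were left out, at 0.26 (SE 0.07, adjusted p = 0.0158, edgeR), where 27.3% of all genes passed. Only 1 of the 2, the PDX1-/- library at 39.7 CPM, was outside the range of the other 19 (10.6 to 20.7 CPM). Against WT alone in that setting CHCHD10 did not pass: the difference was 0.05 (SE 0.14) with BFP and -0.04 (SE 0.13) with the ISL1 vector.

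The balance of the paralogs changed with CHCHD2. Per kb of exon, CHCHD2 was 5.95 to 7.64 times CHCHD10 in the ISL1-/- libraries and at most 0.02 times in the others. Their summed level was 144 to 166 CPM per kb in ISL1-/- and 12 to 45.5 elsewhere, with a median of 18.7. Both follow from the values that chose CHCHD2. Among the 7 genes CHCHD2 had the highest level per kb in ISL1-/-, at 133 ± 7.17 CPM per kb (SD, n = 6), ahead of COX4I1 at 58.5 ± 4.32 and IMMT at 46.9 ± 2.52. CHCHD3 followed at 25.2 ± 1.7, CHCHD10 at 19.9 ± 2.5 and CHCHD6 at 5.2 ± 0.784. Of the neighbours in this order, CHCHD3 and CHCHD10 met at 23.3 CPM per kb, and the libraries of the others did not overlap. The exon length of COX4I1 in the table, 4816 bases, joins all its annotated transcripts and lowers its level per kb.

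COX4I2, the subunit whose promoter CHCHD2 is known to act on, was at or near 0 counts whether CHCHD2 was on or off. The gene (chr20:31637912-31645006) had 0 to 2 counts in the ISL1-/- libraries and 0 to 5 in the others, and the highest, 5 counts or 0.0882 CPM, was replicate 2 of PDX1-/- with ISL1. It was left out of the tests by the filter on low counts. At this depth a difference at so low a level was not detectable.

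COX4I1, the common subunit, was at 319, 255 and 278 CPM in ISL1-/- with BFP and at 283, 283 and 273 with ISL1. WT had 345 and 332 with BFP and 268 and 323 with ISL1. PAX6-/- had 233, 251 and 283 with BFP and 237, 235 and 628 with ISL1, and PDX1-/- had 267, 288 and 234 with BFP and 239 and 1129 with ISL1. The 628 and 1129 CPM belong to the 2 libraries high in mitochondrial counts, and all other libraries lay between 233 and 345 CPM. In ISL1-/- against the other 3 genotypes the log2 fold change was -0.29 (SE 0.25, 95% interval -0.81 to 0.22), and it was 0.08 (SE 0.06) without those 2 libraries. COX4I1 (chr16:85798633-85807068) overlaps EMC8 on the opposite strand, which held 2925 to 7438 counts.

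In PAX6-/- and PDX1-/- against WT with BFP, COX4I1 passed as lower when the 2 libraries were left out and not with all libraries. With all 21 libraries PAX6-/- gave -0.40 (SE 0.45) and PDX1-/- gave -0.36 (SE 0.45), where 5.51% and 9.68% of all genes passed. Without the 2 libraries COX4I1 fell by 0.42 in PAX6-/- (SE 0.11, adjusted p = 0.013, edgeR) and by 0.39 in PDX1-/- (SE 0.11, adjusted p = 0.0174, edgeR). In that setting 23.5% and 27.6% of all genes passed. The 2 libraries are in neither of these groups and enter these values only through the shared spread, the scaling and the filter. ISL1-/- against WT with BFP gave -0.24 (SE 0.11, adjusted p = 0.152, edgeR) in the same setting. These comparisons share the WT libraries.

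**Figure D4:**
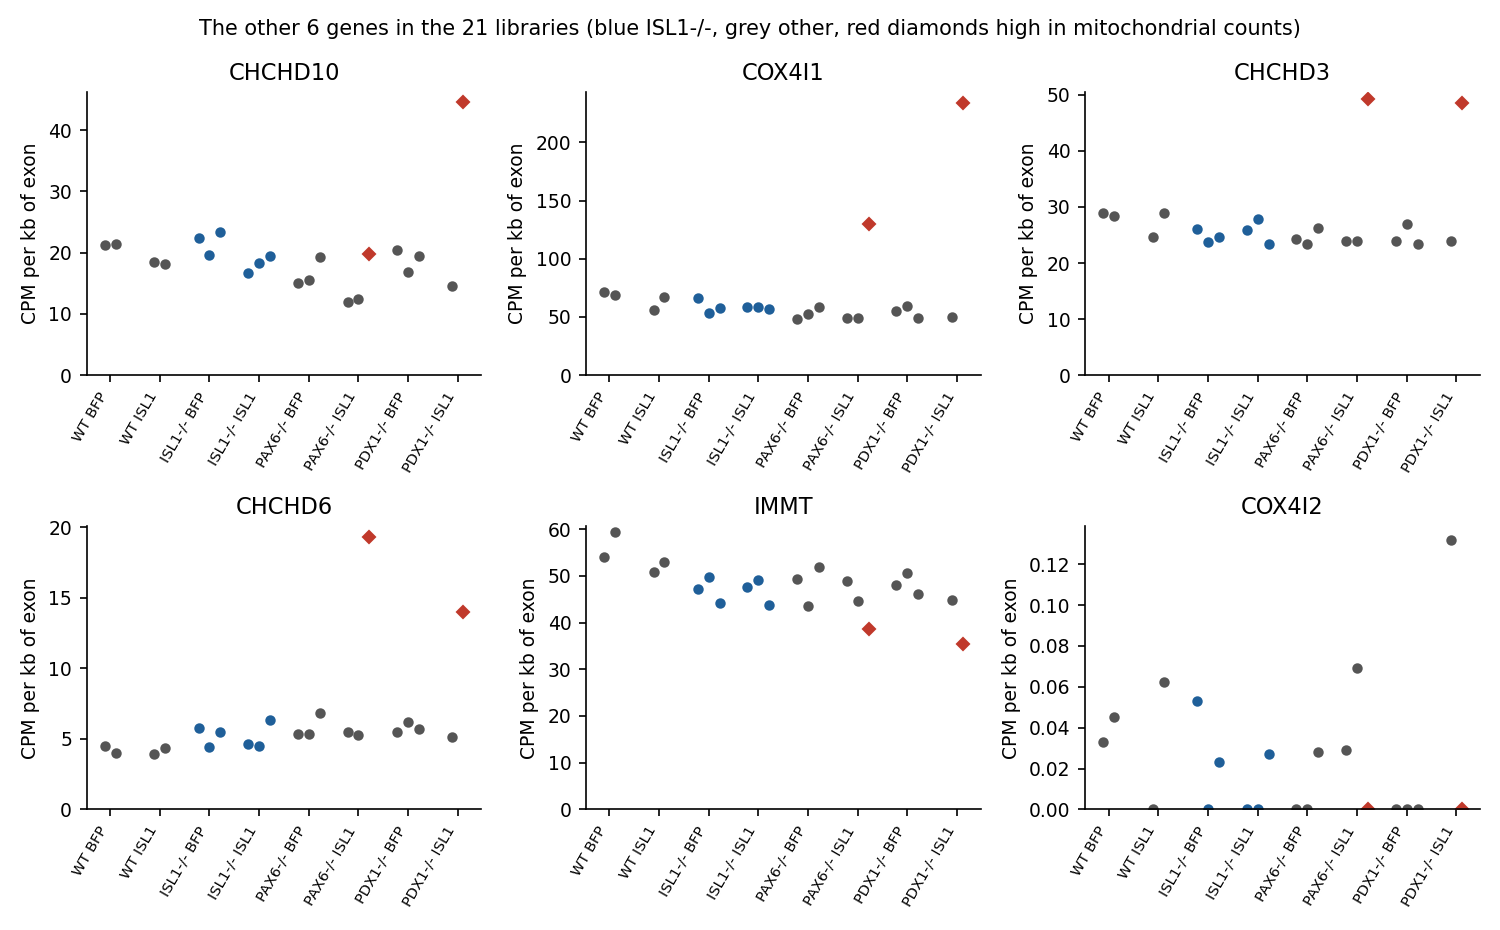
CPM per kb of exon (vertical axes) of CHCHD10, COX4I1, CHCHD3, CHCHD6, IMMT and COX4I2 in each of the 21 libraries by group; blue points are ISL1-/-, grey points other genotypes and red diamonds the libraries with 3.16% and 3.84% mitochondrial counts. The diamonds lie above all other libraries for COX4I1, CHCHD3 and CHCHD6 and below all others for IMMT, while the ISL1-/- points lie among the grey ones.

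The MICOS subunits did not differ between ISL1-/- and the other genotypes beyond the spread. CHCHD3 (chr7:132784870-133082090), which bridges MICOS to the outer membrane, was at 89.5, 81.2 and 84.3 CPM in ISL1-/- with BFP and 88.9, 95.3 and 79.9 with ISL1. It was at 84.7 to 99.5 in WT, 80.4 to 169 in PAX6-/- and 79.8 to 166 in PDX1-/-. Its log2 fold change was -0.18 (SE 0.16, 95% interval -0.51 to 0.15) and 0.00 (SE 0.06) without the 2 libraries, which were at 169 and 166 CPM.

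CHCHD6 (chr3:126704240-126960420), the second CX9C subunit, was at 16.0, 12.3 and 15.1 CPM in ISL1-/- with BFP and 12.9, 12.4 and 17.4 with ISL1. WT was at 10.8 to 12.3, PAX6-/- at 14.6 to 53.2 and PDX1-/- at 14.2 to 38.5 CPM. All PAX6-/- and PDX1-/- libraries thus lay above all WT libraries, but the share of all genes that separate in this way was not counted. The log2 fold change of PAX6-/- over WT with BFP was 0.46 (SE 0.46, adjusted p = 0.668, edgeR) and that of PDX1-/- was 0.45 (SE 0.46, adjusted p = 0.652, edgeR). Without the 2 libraries these became 0.45 (SE 0.17, adjusted p = 0.0615) and 0.43 (SE 0.17, adjusted p = 0.0697). They did not pass in either setting.

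IMMT (chr2:86143932-86195472), the core scaffold, had an SD of 19.3 around a mean of 176 CPM over the 21 libraries. It was at 174, 184 and 162 CPM in ISL1-/- with BFP, at 175, 182 and 162 with ISL1, and at 187 to 219 in WT, 143 to 191 in PAX6-/- and 131 to 186 in PDX1-/-. The 4 WT libraries lay above the 6 ISL1-/- libraries, but the share of all genes that separate in this way was not counted. The log2 fold change of ISL1-/- over WT with BFP was -0.27 (SE 0.17, adjusted p = 0.43, edgeR; 5.59% of all genes passed) and over WT with the ISL1 vector -0.15 (SE 0.17, adjusted p = 0.766, edgeR; 3.72% passed). PAX6-/- and PDX1-/- over WT with BFP gave -0.24 each (SE 0.17). Without the 2 libraries high in mitochondrial counts ISL1-/- over WT with BFP gave -0.25 (SE 0.10, 95% interval -0.46 to -0.04, adjusted p = 0.0753, edgeR). In that setting PAX6-/- gave -0.25 and PDX1-/- -0.26 (SE 0.10 each), and none of these passed. With all 21 libraries IMMT differed by -0.03 (95% interval -0.22 to 0.16) against the other 3 genotypes together, the narrowest interval of the 5 partners.

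By edgeR with all 21 libraries the ISL1 vector did not move a partner past the threshold in any genotype, and its estimates in PAX6-/- and PDX1-/- rested on the 2 libraries. In WT 0.027% of all genes passed, in ISL1-/- 0.382%, in PAX6-/- 0.355% and in PDX1-/- 12.5%. In ISL1-/- the log2 fold changes of ISL1 over BFP were -0.27 (SE 0.29) for CHCHD10, -0.02 (SE 0.41) for COX4I1, 0.05 (SE 0.26) for CHCHD3, -0.02 (SE 0.40) for CHCHD6 and 0.00 (SE 0.15) for IMMT. CHCHD10 had lower values with the ISL1 vector than with BFP in WT (-0.21, SE 0.36) and ISL1-/-, where the libraries did not overlap. The same held for 2 of 3 PAX6-/- libraries, while in PDX1-/- replicate 2 was lower and replicate 4 higher than BFP. No difference passed, and the share of all genes without overlap between so few libraries was not counted.

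In PAX6-/- the vector gave 0.77 (SE 0.41) for CHCHD6, 0.52 (SE 0.41) for COX4I1 and 0.39 (SE 0.26) for CHCHD3, and -0.13, -0.13 and -0.05 without the 2 libraries. The labels give no pairs, but same-numbered PAX6-/- libraries of both vectors deviated together (correlations 0.155, 0.391 and 0.333). All 3 values use deviations from a group mean that holds replicate 3 with ISL1, so they are not independent. The main fit did not use pairs. With the number in the sample description as a block 578 genes passed in place of 92, with no partner among them. With the number in the sample title as a block, which paired the PAX6-/- libraries in the same way, 91 genes passed. The description number also left the PDX1-/- library high in mitochondrial counts alone in its block, which removed it from every comparison. Whether the pairing had a part in the rise to 578 was not tested. In PDX1-/- COX4I1 was at 1.38 (SE 0.45, adjusted p = 0.0516, edgeR), just outside the threshold, and at -0.11 (SE 0.15) without the 2 libraries, where 8.92% of all genes passed. It passed at 1.39 by DESeq2 (adjusted p = 0.0212), at 1.39 with DESeq2's size factors in edgeR (adjusted p = 0.0493) and at 1.31 with no filter (adjusted p = 0.0249). It also passed with any of the 3 libraries of PAX6-/- with ISL1 left out, at 1.38 to 1.39 (adjusted p from 0.0151 to 0.048, edgeR).

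With replicate 2 of PDX1-/- with ISL1 left out, so that replicate 4 stood alone for its group and was assumed to vary like the others, COX4I1 rose by 2.09 (adjusted p = 0.00027), CHCHD6 by 1.26 (adjusted p = 0.0386), CHCHD10 by 1.23 (adjusted p = 0.000968) and CHCHD3 by 0.96 (adjusted p = 0.0135, edgeR). In that fit 41.8% of all genes passed. These 4 calls describe replicate 4 against PDX1-/- with BFP. Among the differences between the vector effect in a knockout and that in WT, the largest of a partner was that of COX4I1 in PDX1-/-, at 1.57 (SE 0.67, adjusted p = 0.27, edgeR).

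The 2 libraries departed alike for some mitochondrial genes and lists and not for others. COX4I1 was 2.3 and 4.14 times the median of the other 19 libraries in the PAX6-/- and PDX1-/- library, CHCHD6 3.61 and 2.62 times, CHCHD3 2 and 1.97 times and CHCHD10 1.07 and 2.41 times, while IMMT was 0.793 and 0.725 times. The 13 other complex IV subunits summed to 3690 and 5358 CPM there and to 1090 to 1840 CPM in the other 13 libraries outside ISL1-/-. The 13 mitochondrially encoded genes summed to 14614 and 25470 CPM against 4801 to 9774. The regulators and binding or processing partners summed to 1296 and 1646 CPM against 1156 to 1350. The low-oxygen genes summed to 1163 and 2487 CPM against 976 to 2314. In these last lists only the PDX1-/- library lay outside the range. What set these libraries apart was not tested.

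**Figure D5:**
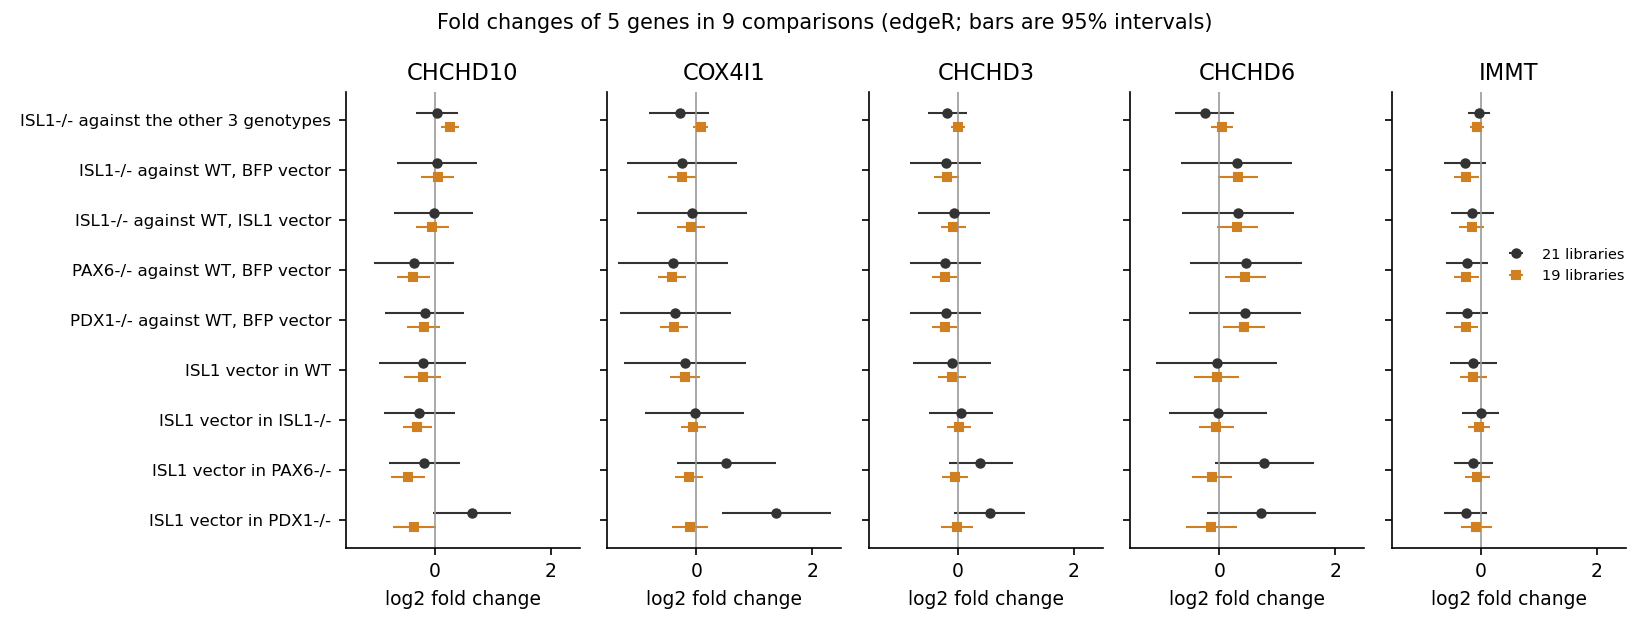
Log2 fold change with its 95% interval (horizontal axes) of the 5 tested partners in the 9 comparisons, from all 21 libraries (circles) and from the 19 libraries without those high in mitochondrial counts (squares). The circles for the ISL1 vector in PDX1-/- reach 1.38 for COX4I1, and the squares lie between -0.46 and 0.45 throughout.

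The wider pathways around CHCHD2 were compared in ISL1-/- against the other 3 genotypes, where 11.9% of all genes passed. None of the 9 other MICOS and outer-membrane bridge subunits passed by edgeR (1 had an unadjusted p under 0.05), with a median log2 fold change of -0.19. None of the 16 other CX9C proteins passed (2 unadjusted; median -0.31), and none of the 12 tested other complex IV subunits (2 unadjusted; median -0.35). None of the 11 regulators and binding or processing partners, such as RBPJ, CXXC5 and the protease YME1L1, passed, with 0 unadjusted and a median of 0.01. None of the 12 low-oxygen genes passed (3 unadjusted; median -0.12), and none of the 13 mitochondrially encoded genes (1 unadjusted; median -0.30). DESeq2 called 1 low-oxygen gene and none in the other 5 lists. The median over all genes tested was -0.03.

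The lower medians went with the 2 libraries. Without them the medians were 0.02 for the other MICOS and bridge subunits, 0.06 for the CX9C proteins, 0.04 for complex IV and 0.04 for the mitochondrially encoded genes. A few genes of the lists then passed, where 27.3% of all genes did: GFER, the sulfhydryl oxidase that works with CHCHD4, rose by 0.37 (SE 0.09, adjusted p = 0.00437, edgeR), COA4 rose by 0.19 (SE 0.06) and COX5A and MTX2 fell by 0.22 and 0.21. C1QBP, a mitochondrial matrix protein that binds CHCHD2, rose by 0.34 (SE 0.07, adjusted p = 0.00207, edgeR), and the protease LONP1 rose by 0.21, while YME1L1 and BCL2L1 fell by 0.20 and 0.19. LDHA, the glycolytic lactate dehydrogenase subunit, rose by 0.49 (SE 0.08, adjusted p = 0.000396, edgeR), with EGLN3 and PFKFB4 falling by 0.39 and 0.28. Each of these differences was under 0.5 in log2. Not all held against WT alone. In ISL1-/- against WT with BFP in the same setting, where 6417 genes passed, LDHA passed as lower and not higher. YME1L1 and BCL2L1 passed as lower there too, and the other genes named here did not pass. Against WT alone in that setting the median of the mitochondrially encoded genes was -0.28 with BFP and -0.28 with the ISL1 vector. None of these genes passed. The median of the other complex IV subunits was -0.01 with BFP and -0.20 with the ISL1 vector.

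In the mitochondrial stress list 3 of 14 tested genes fell in ISL1-/- and none rose by edgeR, beside 11.9% of all genes that passed in either direction, and DESeq2 called 4. The median was -0.26. GDF15, a secreted stress cytokine, was at 64.5 to 137 CPM in ISL1-/- and 96.1 to 825 elsewhere and fell by 1.25 (SE 0.25, adjusted p = 0.00362, edgeR). CHAC1, a glutathione-degrading enzyme, fell by 0.92 (SE 0.27, adjusted p = 0.0333), and TRIB3, a pseudokinase induced by ATF4, fell by 0.66 (SE 0.17, adjusted p = 0.0148, edgeR). GDF15 passed with each of the 21 libraries left out in turn. TRIB3 lost its call without replicate 2 of ISL1-/- with BFP (adjusted p = 0.0529), and CHAC1 without any of the 6 ISL1-/- libraries, replicate 3 of WT with BFP or replicate 2 of WT with ISL1 (adjusted p up to 0.0863). Without the 2 libraries high in mitochondrial counts, GDF15 fell by 0.96, CHAC1 by 0.58 and TRIB3 by 0.56. In that setting, where 27.3% of all genes passed, 4 genes of the list fell, ATF4 being the fourth, and 2 rose, HSPD1 and PHGDH, a serine synthesis enzyme, by 0.44 (SE 0.08). Against WT alone with all 21 libraries, only GDF15 of the first 3 passed with BFP, where 5.59% of all genes passed. None of them passed with the ISL1 vector, where 3.72% did. Without the 2 libraries 6417 and 5308 genes passed. GDF15 and TRIB3 then passed as lower with either vector, and CHAC1 with the ISL1 vector only.

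Some markers of other cell types passed in ISL1-/- against the other 3 genotypes, where 11.9% of all genes passed, and their part in the results above was not tested. Of the 10 mural and fibroblast markers 2 fell, LUM (log2 fold change -2.31) and TAGLN (-1.27), DESeq2 called 6, and the fold changes of the list ran from -2.37 to 1.15. Without the 2 libraries high in mitochondrial counts 4 fell and 2, ACTA2 and PDGFRB, rose. The list summed to 218 to 457 CPM in ISL1-/- against 140 to 1975 elsewhere. Of the 8 duct and acinar markers 2 fell, CELA3A (-1.61) and SPP1 (-0.62), and DESeq2 called 4, with sums of 1139 to 1408 against 644 to 3624 CPM. Of the 8 neural progenitor markers SOX1 and OTX2 rose (0.74 and 1.65) and FABP7 fell (-1.83), and DESeq2 called 4, with sums of 15.5 to 50.7 against 6.4 to 164 CPM. Of the 8 endocrine markers 1 fell, PCSK1N (-0.94), near the share of all genes, and DESeq2 called 2, with sums of 15674 to 37122 against 12679 to 55220 CPM. None of the 6 endothelial markers (2 unadjusted; 1 by DESeq2) and none of the 4 tested pluripotency markers (0 unadjusted; 0 by DESeq2) passed by edgeR. No gene of these lists was at 0 in every library, but some that passed were low. OTX2 was at 0.0997 to 0.622 CPM in ISL1-/- and 0 to 1.31 elsewhere. CELA3A was at 0.0622 to 0.332 against 0.0831 to 1.09 CPM, and FABP7 at 0.266 to 1.43 against 0.593 to 16.9. The ranges of each of these genes overlapped. Leaving out 1 library at a time ended the calls of PCSK1N, SOX1, LUM, TAGLN, OTX2 and SPP1 in from 4 to 16 of 21 fits each (adjusted p up to 0.144), and those of FABP7 and CELA3A in none.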

How the data were processed

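The authors deposited raw read counts per gene for 21 libraries, with exon coordinates, strand and length, per the file headers. STAR 2.7.11b, featureCounts 2.1.1 and GRCh38 are named in the submitters' processing notes; annotation release, strand setting and treatment of multiply mapping reads are not given in the sources used here. One broken entry (ANK2) was left out of 62700, and all other IDs matched a symbol. Tests used edgeR 4.0.16 (quasi-likelihood F test, R 4.3.3) after TMM scaling and filterByExpr (minimum count 10, total 15; 25884 genes), in 1 model of all 21 libraries with a coefficient per group. The common dispersion corresponds to a coefficient of variation of 0.334. Within each of 9 comparisons p-values were Benjamini-Hochberg adjusted, with a threshold of 0.05. The fit was tested on simulated data. SE is the fold change over the square root of F. Folds use a prior count of 0.125 and log2 CPM 2. CPM uses TMM library sizes, and a floor of 3 counts covers counting error only.

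The members and lists were chosen with earlier results of these data known. Named genes are the members, CHCHD2 copies and overlapping genes, protein-coding neighbours within 500 kb, the 8 genes most and 4 least correlated with CHCHD2, up to 4 changed genes of largest fold per list, and ISL1, PAX6 and PDX1. CHGA, INS and GCG were named as well, to describe the libraries. Alternatives were DESeq2 1.42.0, its size factors, no filter, a replicate block, other comparators and each library left out; the fit without both libraries high in mitochondrial counts was added after seeing the data. Libraries are named by the number in the sample description. Same-numbered PAX6-/- libraries of both vectors deviated together (correlations 0.155, 0.391 and 0.333). These numbers were therefore taken as pairs, from the data and not from the labels, and the main fit had no term for pairs. Promoters are RefSeq sequence of GRCh38.p14.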

Additional observations from a re-analysis of the deposited data

How the results depend on the processing

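CHCHD2's vector effect in ISL1-/- kept its sign and stayed outside the threshold in all alternatives. Of 1262 alternative values of the tested members, 1210 kept sign and side of the threshold, 13 passed it and 39 changed sign. Counts of genes changed depended far more on the setting. Leaving out both libraries high in mitochondrial counts, a choice made after seeing the data, gave 7456 in place of 3071 for ISL1-/- against the other 3 genotypes. Against WT with BFP it gave 6417 for ISL1-/- (1448), 6423 for PAX6-/- (1425) and 7544 for PDX1-/- (2506), and 5308 for ISL1-/- against WT with the ISL1 vector (962). For the vector it gave 359 in WT (7), 1345 in ISL1-/- (99) and 1357 in PAX6-/- (92). The signs that turned with it were, for ISL1-/- against the other 3 genotypes, COX4I1 at 0.08 and CHCHD6 at 0.05. For the vector in PAX6-/- they were COX4I1 at -0.13, CHCHD6 at -0.13 and CHCHD3 at -0.05, and in PDX1-/- COX4I1 at -0.11, CHCHD6 at -0.14, CHCHD3 at -0.01 and CHCHD10 at -0.35. The replicate block by description number leaves replicate 4 of PDX1-/- with ISL1 alone in its block, which removes it from every comparison. With that replicate block 3150, 3358 and 4594 genes passed for ISL1-/-, PAX6-/- and PDX1-/- against WT with BFP, 2423 for ISL1-/- against WT with the ISL1 vector, and 49, 483, 578 and 541 for the vector in WT, ISL1-/-, PAX6-/- and PDX1-/-. It turned the vector effects in PDX1-/- of CHCHD10 to -0.26, COX4I1 to -0.07 and CHCHD3 to -0.01, and that of CHCHD6 in WT to 0.20. The replicate block by title number turned CHCHD10 in ISL1-/- against WT with BFP to -0.06; neither block changed a call of a member. Of the vector comparisons with 3 shared numbers, only that in PAX6-/- was taken as paired, and in ISL1-/- the correlations were 0.183, 0.099 and 0.293. DESeq2 called 2431 and 2455 genes for ISL1-/- and PAX6-/- against WT with BFP, 1936 for ISL1-/- against WT with the ISL1 vector, and 63, 379, 463 and 4891 for the vector in WT, ISL1-/-, PAX6-/- and PDX1-/-. With no filter 23 genes passed for the vector in WT and 155 in ISL1-/-. Only PAX6-/- as comparator gave 1812 genes and IMMT at 0.03; only PDX1-/- gave CHCHD10 at -0.25 and IMMT at 0.09; only WT gave CHCHD6 at 0.31. A fit of only the 5 libraries gave 5846 genes for ISL1-/- against WT with BFP. Where no construction is named, the cause was not tested.

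With 1 library left out at a time, counts ranged from 2025 (without replicate 1 of ISL1-/- with BFP) to 6854 (without replicate 2 of PDX1-/- with ISL1) for ISL1-/- against the other 3 genotypes. Against WT with BFP they ranged from 459 to 2780 for ISL1-/-, 276 to 2909 for PAX6-/- and 736 to 4011 for PDX1-/-, lowest without replicate 1 of WT with BFP and highest without replicate 2 of PDX1-/- with ISL1. They ranged from 242 to 2079 for ISL1-/- against WT with the ISL1 vector, and for the vector from 0 to 53 in WT, 14 to 364 in ISL1-/-, 13 to 513 in PAX6-/- and 665 to 11519 in PDX1-/-. Members that changed sign with 1 library left out had these ranges: CHCHD10 -0.37 to 1.23 (vector in PDX1-/-), -0.02 to 0.10 and -0.07 to 0.04 (ISL1-/- against WT, BFP and ISL1 vector) and -0.07 to 0.21 (ISL1-/- against the other 3); CHCHD3 -0.01 to 0.12, -0.04 to 0.57, -0.04 to 0.96 and -0.22 to 0.03 (vector in ISL1-/-, PAX6-/-, PDX1-/- and WT) and -0.19 to 0.05 (ISL1-/- against WT, ISL1 vector). For CHCHD6 they were -0.20 to 0.07, -0.12 to 1.08, -0.16 to 1.26 and -0.12 to 0.05 (vector, same order), and for COX4I1 -0.09 to 0.07, -0.11 to 0.76 and -0.13 to 2.09 (vector in ISL1-/-, PAX6-/- and PDX1-/-) and -0.22 to 0.06 (ISL1-/- against WT, ISL1 vector). Depth limits COX4I2, which had at most 5 counts.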
